A study of Homo sapiens with 12 samples.

Results

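Histone genes, those of the replication-dependent clusters and those of the replacement variants, were followed in the RNA of human fibroblasts entering oncogene-induced senescence (OIS) with and without knockdown of XPO7, a nuclear transport receptor. Members were protein-coding genes whose symbol named a core or linker histone, in the older style (HIST1, HIST2, HIST3, HIST4, H1F, H2AF, H3F) or the current one. The rule gave 50 of the 62069 genes in the count table, of which 37 were cluster genes (6 of H1, 9 of H2A, 11 of H2B, 7 of H3 and 4 of H4) and 13 were replacement genes. A further 38 genes that the rule names in GENCODE release 29, among them HIST1H3A and HIST1H4A, matched no row by identifier and are not analysed here. The cells were IMR90 ER:RAS, a line of human lung fibroblasts at passage 13 that carries RAS fused to an oestrogen receptor domain, so that 4-hydroxytamoxifen (4OHT, 100 nM) switches RAS on. There were 4 groups of 3 libraries at day 5: non-induced cells, induced cells given 4OHT, and induced cells carrying an shRNA against XPO7, either shXPO7_3 or shXPO7_5. The labels name no vector for the groups without an shRNA, while the study describes a vector control, so the labels alone do not tell what the knockdown libraries are matched with. All groups shared the ER:RAS construct, and nothing in the labels or methods tells if replicate letters stand for separate cultures; a p-value here therefore speaks of the spread between libraries, which may be technical.

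Histones package DNA into nucleosomes, in each of which DNA is wrapped around H2A, H2B, H3 and H4 while H1 binds the linker. Cluster genes are transcribed in S phase, when new DNA must be packaged. Their canonical messages end in a conserved stem-loop in place of a poly(A) tail. Stem-loop binding protein (SLBP) and the U7 snRNP direct the cleavage that makes this end. Replacement genes such as H3-3B or H2AZ1 are expressed through the cell cycle, have introns in many cases and make polyadenylated mRNA. In cells that stop dividing, some cluster genes are also known to be read through to a downstream poly(A) site. The libraries here were made with an mRNA kit, so stem-loop messages without a tail are poorly represented, and a cluster gene's value does not measure its total RNA.

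Library totals ran from 28534141 to 60397769 counts. All 10 fibroblast markers passed the filter on low counts. Summed levels of 5 leukocyte markers were 0.109 to 0.340 CPM, with CD3E at 0 in every library. Of 4 endothelial markers, PECAM1 and CDH5 were at 0 in every library, VWF was at 1.70 to 4.17 CPM and KDR at 0.17 to 1.10 CPM. The endothelial sum was 2.46 ± 0.64 CPM in non-induced and 3.48 ± 0.21 CPM in induced cells (SD, n = 3). The summed level of 5 epithelial markers was 69.1 to 84.6 CPM in non-induced and 40.1 to 46.3 CPM in induced libraries, and its part in the results below was not tested. Over all 12 libraries EPCAM reached at most 1.11 CPM and CDH1 at most 0.202 CPM. The keratin genes were higher, with KRT18 at 29.1 to 46.4, KRT8 at 5.71 to 11.6 and KRT19 at 1.09 to 36.5 CPM. The tilt of a library's values with transcript GC content, as Spearman's rho across genes against the mean of all 12, was highest in induced + shXPO7_5 replicates B (0.676) and T (0.441) and induced + shXPO7_3 replicate T (0.348). It was −0.353, −0.369 and −0.191 in induced libraries T, A and B. In non-induced libraries T, A and C it was 0.255, 0.003 and −0.208. MKI67, a proliferation marker, was at 270 ± 17.3 CPM in non-induced and 27.5 ± 2.52 CPM in induced cells (SD, n = 3).

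The stem-loop is shown first because canonical cluster messages end in it. The motif (GGC, any base, CTTTTCAG, any base, then GCC) was found in 41 of 206694 GENCODE 29 transcripts, in 15 of the 37 cluster members and in 0 of the 13 replacement members. Only these letters were searched for, so a stem-loop spelled otherwise was missed in either class. For many other cluster genes the transcript model ends with the coding sequence, so no match there says only that these letters lie outside the model. Of the 15 cluster members with the motif, 9 had measurable RNA, and the sites of all of these but H2AC13 and H2BC15 follow. They are given with 5 flanking bases on each side and the 16-base motif in capitals (GRCh38, transcript strand 5′ to 3′).
H2AC6, chr6:26124664-26124689, plus strand: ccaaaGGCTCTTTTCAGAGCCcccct
H2AC11, chr6:27133510-27133535, plus strand: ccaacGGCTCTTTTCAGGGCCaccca
H2AC25, chr1:228457364-228457389, minus strand: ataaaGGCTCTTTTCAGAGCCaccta
H2BC18, chr1:149811880-149811905, minus strand: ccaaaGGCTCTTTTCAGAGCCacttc
H2BC21, chr1:149886183-149886208, minus strand: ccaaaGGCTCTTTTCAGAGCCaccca
H4C8, chr6:26285126-26285151, minus strand: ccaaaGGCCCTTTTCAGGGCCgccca
H4C16, chr12:14770719-14770744, minus strand: caaaaGGCCCTTTTCAGGGCCcccaa
Each of the genes shown had an annotated transcript that ran far past the stem-loop. It ran 1729 bases past it in H2BC21, 1761 in H2AC11, 1479 in H2BC18, 390 in H2AC25 and up to 1128 in H2AC6, 1655 in H4C8 and 1510 in H4C16. Another model of H4C8 ended 18 bases past the stem-loop, and some models of H2AC6, H2BC18 and H4C16 held no such match. Of the genes not shown, H2AC13 had a single model, which ended 39 bases past the motif. Models of H2BC15 with the motif ended 5 and 377 bases past it.

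Of the 50 members, 25 passed edgeR's filter on low counts (about 0.283 CPM on unscaled library totals, in at least 3 libraries). These were 15 cluster and 10 replacement genes. Levels given in CPM are counts divided by the TMM-scaled library size. Among the 15, 11 had a transcript model with an intron or with over 100 bases past the stem-loop, and among the 22 cluster genes under the filter 4 did. The other 4 of the 15 were H1-2, H2AC13, H2BC12 and H3C4. The 25 members under the filter never exceeded 12 counts in a library, and 8 of them had 0 counts in all 12. Of these 8, H3C14, H3C15 and HIST2H2AA3 shared every 50-base window of their transcripts with another gene (H3C14 and H3C15 with each other), so a value of 0 for them cannot be read as absent RNA. H2AC13 and H2BC15 reached the filter's level in 0 non-induced libraries and passed through the induced groups, so counts over the 25 are descriptions only.

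Pairs of H2A and H2B genes often lie head to head with a shared promoter, and 2 such pairs were measured in full. RefSeq promoter windows (GRCh38.p14, 250 bases before to 50 after the start) were given for 43 of the 50 members. The bases between the RefSeq starts of H2BC4 (minus strand) and H2AC6 (plus strand), 246 bases apart, and between those of H2BC11 and H2AC11, 248 bases apart, are printed because the first pair moved together on induction and the second did not. Capitals mark the CCAAT box, the TATA box (spelled TATAAA), the octamer (spelled ATTTGCAT) that Oct-1 binds in H2B promoters, and a string spelled TTTNGCGC like the sites of E2F factors. Both strands were searched, and adjoining or overlapping matches form 1 capital run.
H2BC4 and H2AC6, chr6:26123927-26124171, plus strand: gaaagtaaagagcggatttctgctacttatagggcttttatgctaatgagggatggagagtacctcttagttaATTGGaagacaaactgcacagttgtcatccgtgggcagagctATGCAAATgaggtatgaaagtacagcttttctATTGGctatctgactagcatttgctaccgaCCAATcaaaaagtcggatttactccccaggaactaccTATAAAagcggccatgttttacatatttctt
H2BC11 and H2AC11, chr6:27132796-27133042, plus strand: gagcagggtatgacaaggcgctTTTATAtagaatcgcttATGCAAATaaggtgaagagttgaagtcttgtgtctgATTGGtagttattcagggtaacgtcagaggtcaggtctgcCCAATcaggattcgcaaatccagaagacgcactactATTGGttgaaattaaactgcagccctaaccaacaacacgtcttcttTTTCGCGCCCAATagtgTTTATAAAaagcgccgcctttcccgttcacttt
Each stretch held 1 octamer. The first held 3 matches to CCAAT and 1 to TATAAA, and the second held 4 and 3, counting overlapping matches separately. The second also held 1 match to TTTNGCGC, and the first held 0.

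The octamer lay in 9 of the 18 windows of measured cluster genes (50%) and in 1 of the 13 of measured replacement genes, that of H3-3B, against 1.77% of all 35116 windows. CCAAT lay in 88.9% and 69.2% of those windows against 34.6% of all, TATAAA in 66.7% and 30.8% against 11.5%, and TTTNGCGC in 33.3% and 0% against 1.79%. A gene can have more than 1 window, and neighbouring head-to-head genes share most of theirs. A match is a string of letters, not a binding site.

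The induction of RAS was examined first, by comparing induced with non-induced cells. RNA of 10 cluster genes rose and RNA of 2 fell, while 6 replacement genes fell and 2 rose. In all 20 of 25 tested members (80%) passed an adjusted p of 0.05 by edgeR's quasi-likelihood test, against 50.9% of the 15284 genes tested. The 12 members that rose were 48% of those tested, against 24.8% of all genes, and the 8 that fell were 32%, against 26.1%. With a change of at least 1 on the log2 scale also required, 7 members (28%) passed against 16.8% of all genes, 6 of them cluster genes that rose and the other H2AX, which fell. The median log2 fold change was 0.83 over the 15 cluster genes, −0.48 over the 10 replacement genes and −0.01 over all genes. H2AC13 and H2BC15, which passed the filter through the induced groups, are part of the cluster median. H2BC15 is also among the 10 cluster genes that rose and the 6 with the larger change, so these values are descriptions only. In RNA of whole cultures, a change in the share of cells with a message and a change in the message per cell cannot be told apart, and CPM are shares of all counted mRNA.

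**Figure D1:**
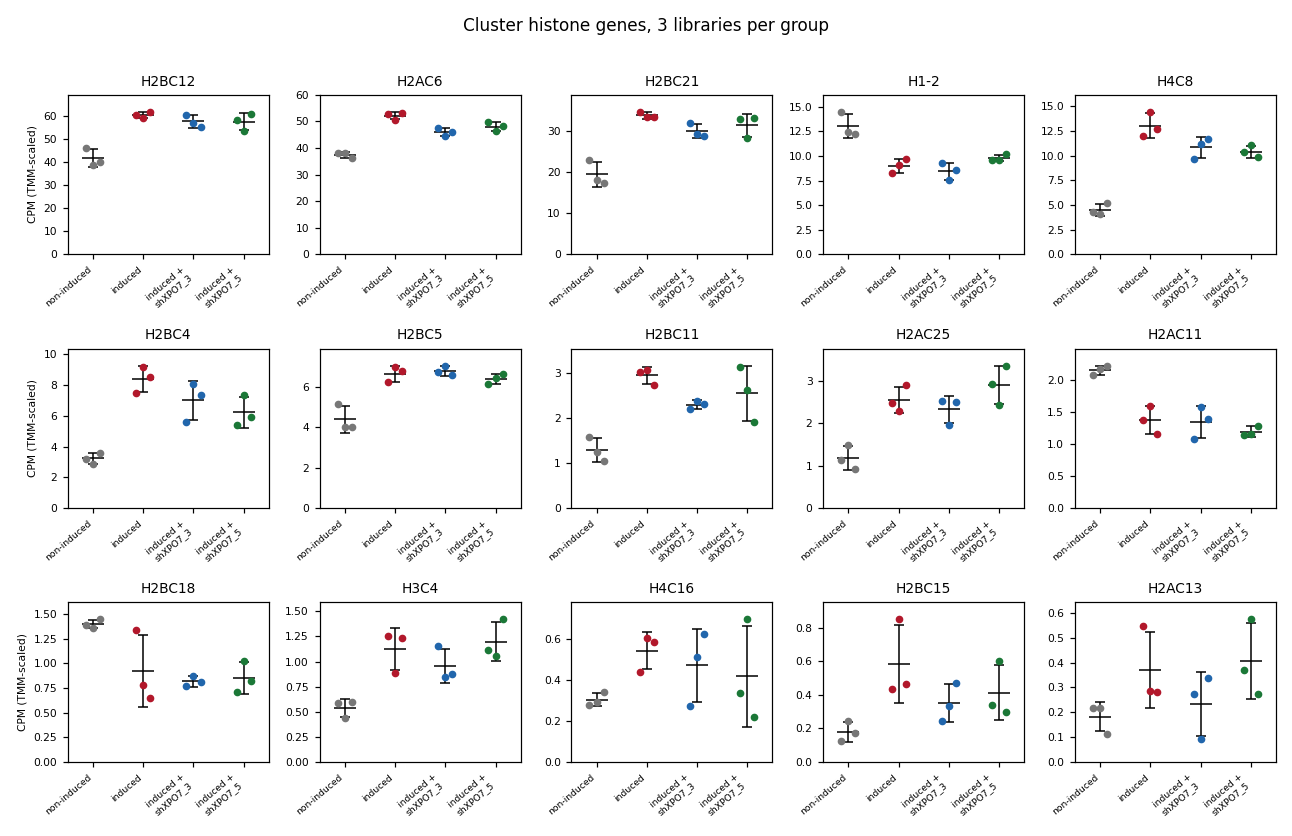
Levels of the 15 tested cluster genes in CPM (vertical axes, each from 0) for the 4 groups, with 1 point per library and a bar for the mean ± SD of 3 libraries. For H4C8 the induced libraries lie at 11.97 to 14.4 CPM and the non-induced ones at 4.03 to 5.16 CPM, while H1-2 and H2AC11 are lower in induced cells.

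H4 was represented by H4C8 and H4C16, both of which carry the stem-loop printed above and have longer annotated forms. H4C8 was at 11.97, 14.4 and 12.7 CPM in induced libraries T, A and B and at 4.29, 4.03 and 5.16 CPM in non-induced libraries T, A and C. No library of one group came near the other, and the log2 fold change was 1.53 ± 0.12 (SE; 2.89-fold, edgeR adjusted p = 4.55e-07), which passed in all 22 alternatives. H4C16, on chromosome 12 outside the main clusters, was at 0.437 to 0.603 CPM after induction and 0.278 to 0.340 CPM before, and its log2 fold change of 0.83 did not pass (edgeR adjusted p = 0.111).

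H2B, the partner of H2A in the nucleosome, had the most measured cluster genes, and 6 of its 7 rose. H2BC4 was at 7.46, 9.18 and 8.53 CPM in induced libraries and at 3.21, 2.87 and 3.60 CPM in non-induced ones, a log2 fold change of 1.38 ± 0.16 (SE; edgeR adjusted p = 1.74e-05). H2BC21, in the chromosome 1 cluster, was at 34.7, 33.3 and 33.4 CPM against 23.0, 17.97 and 17.4 CPM, and rose by 0.80 ± 0.11 on the log2 scale (edgeR adjusted p = 5.83e-05). The groups did not overlap for either gene, and the induced libraries of H2BC21 were closer together than the non-induced ones. H2BC12 had the highest level of the family, at 60.2, 59.2 and 61.8 CPM against 45.9, 38.7 and 40.2 CPM, and rose by 0.54 ± 0.08 on the log2 scale (edgeR adjusted p = 0.000139). Its values are uncertain between copies, since 74.1% of its 50-base windows also occur in other genes, mostly H2BFS.

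The other H2B genes were less abundant. H2BC5 went from 4.38 ± 0.68 to 6.64 ± 0.39 CPM (SD, n = 3) and H2BC11 from 1.29 ± 0.27 to 2.95 ± 0.18 CPM, log2 fold changes of 0.60 and 1.20 (edgeR adjusted p = 0.000597 and 0.000195). H2BC15 had the largest fitted change, 1.62 ± 0.42 (SE), at only 0.437, 0.851 and 0.464 CPM against 0.124, 0.243 and 0.170 CPM. This gene reached the filter only through the induced groups, which a rise favours. H2BC18, the exception in the family, was at 1.34, 0.780 and 0.645 CPM in induced and 1.39, 1.36 and 1.44 CPM in non-induced libraries. The log2 fold change of −0.61 did not pass (edgeR adjusted p = 0.0525). Without induced replicate T, which lay next to the non-induced libraries, it was −0.98 with an edgeR adjusted p of 0.00244. It passed in 3 of 21 alternatives, also with upper-quartile scaling and with GC content and length corrected for (edgeR adjusted p = 0.0265 and 0.0318). With 1 library left out, the log2 fold change ran from −0.98 to −0.39. Of the 50-base windows of H2BC18, 25.7% also occur in other genes, so its values are uncertain between copies.

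H2A genes of the clusters went both ways. H2AC6 was at 52.7, 50.6 and 53.2 CPM in induced libraries against 38.2, 38.0 and 36.2 CPM, and rose by 0.48 ± 0.06 on the log2 scale (edgeR adjusted p = 4.79e-05). H2AC25, a gene of the small chromosome 1 cluster formerly named HIST3H2A, was at 2.49, 2.30 and 2.91 CPM against 1.14, 1.48 and 0.935 CPM, a log2 fold change of 1.11 ± 0.19 (edgeR adjusted p = 0.000425). In contrast, H2AC11 was at 1.37, 1.59 and 1.15 CPM in induced and 2.07, 2.16 and 2.21 CPM in non-induced libraries and fell by 0.67 ± 0.17 on the log2 scale (edgeR adjusted p = 0.00499). The head-to-head pair of H2BC4 and H2AC6 thus rose together, while of the other pair H2BC11 rose and H2AC11 fell, although each pair shares the bases printed above. H2AC13 was at 0.282 to 0.547 CPM against 0.113 to 0.219 CPM and did not pass (log2 fold change 0.998, edgeR adjusted p = 0.107), with 62.3% of its 50-base windows shared with HIST1H2AJ.

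H3 had 1 measurable cluster gene, H3C4, which encodes an H3 of the replication-coupled type. It was at 1.26, 0.886 and 1.23 CPM in induced and 0.587, 0.437 and 0.595 CPM in non-induced libraries, a log2 fold change of 1.08 ± 0.23 (edgeR adjusted p = 0.00161). All of its 50-base windows also lie in a longer transcript named AL031777.3, so its reads cannot be assigned with certainty. H1-2, the only linker histone gene of the chromosome 6 cluster that passed the filter, went against most cluster genes. It was at 8.23, 9.11 and 9.64 CPM against 14.5, 12.5 and 12.2 CPM and fell by 0.54 ± 0.10 on the log2 scale (edgeR adjusted p = 0.000890). Its groups did not overlap, and the call held in all 22 alternatives.

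**Figure D2:**
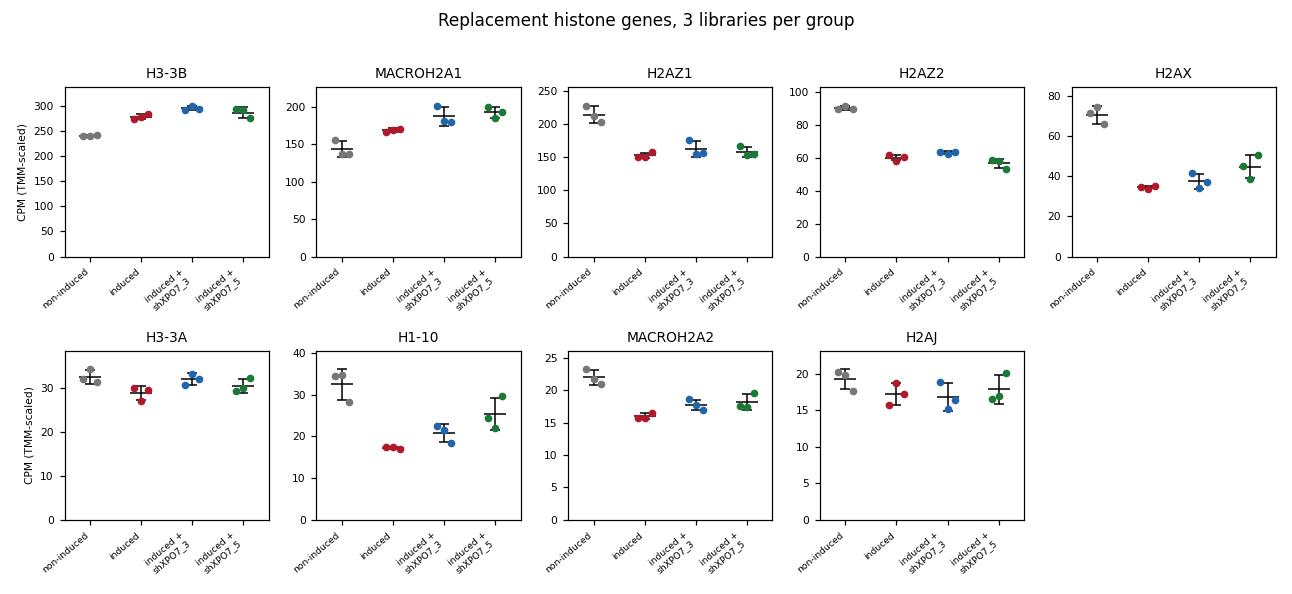
Levels of 9 tested replacement genes in CPM (vertical axes, each from 0) for the 4 groups, with 1 point per library and a bar for the mean ± SD of 3 libraries. H2AX lies at 65.9 to 74.7 CPM in non-induced and 33.9 to 35.4 CPM in induced libraries, and H3-3B and MACROH2A1 are the genes that are higher in induced cells.

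Among replacement genes the largest change was in H2AX, the H2A variant whose phosphorylation marks DNA breaks. It was at 34.8, 33.9 and 35.4 CPM in induced and 71.8, 74.7 and 65.9 CPM in non-induced libraries, and fell by 1.03 ± 0.10 on the log2 scale (2.04-fold lower, edgeR adjusted p = 4.54e-06). Its transcripts are GC-rich (66.9%), and the call held in all 22 alternatives, among them the one with GC content and length corrected for. The H2A.Z genes, whose variant is placed at promoters, also fell: H2AZ1 was at 151, 149 and 157 CPM against 228, 211 and 203 CPM (log2 fold change −0.49 ± 0.07), and H2AZ2 at 61.8, 58.4 and 60.4 CPM against 90.1, 91.9 and 89.8 CPM (−0.59 ± 0.06). Their edgeR adjusted p-values were 0.000113 and 5.97e-06, and no library of one group overlapped the other.

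H1-10, a linker histone gene outside the clusters, fell as H1-2 did. It was at 17.5, 17.4 and 16.9 CPM in induced and 34.6, 34.7 and 28.2 CPM in non-induced libraries, a log2 fold change of −0.91 ± 0.12 (edgeR adjusted p = 5.27e-05). Its antisense neighbour H1-10-AS1 went from 2.10 to 1.16 CPM, and how the counting treated strand is not known here. The induced libraries of H1-10 were closer together than the non-induced ones, and the groups did not overlap. Transcripts of H1-10 are GC-rich as well (68.6%), and its call also held in all 22 alternatives.

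The macroH2A genes, which encode H2A variants with a large extra domain found on silenced chromatin, moved in opposite directions. MACROH2A2 was at 15.7, 15.8 and 16.5 CPM against 23.3, 21.8 and 21.0 CPM and fell by 0.46 ± 0.08 on the log2 scale (edgeR adjusted p = 0.000347). MACROH2A1 was at 167, 170 and 171 CPM in induced and 155, 137 and 137 CPM in non-induced libraries and rose by 0.24 ± 0.07 (edgeR adjusted p = 0.0132), a call that was lost with upper-quartile scaling (adjusted p = 0.230) and without non-induced replicate A (adjusted p = 0.0612). H2AJ, an H2A variant linked to senescence in fibroblasts, was at 15.7, 18.7 and 17.3 CPM against 20.3, 19.8 and 17.7 CPM, with overlapping groups and a log2 fold change of −0.16 (95% interval −0.41 to 0.08, edgeR adjusted p = 0.241).

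H3.3, the replacement H3 laid down outside S phase, is encoded by a pair of genes that make the same protein. H3-3B, the more abundant per length, was at 275, 278 and 283 CPM in induced and 239, 240 and 241 CPM in non-induced libraries and rose by 0.21 ± 0.05 on the log2 scale (edgeR adjusted p = 0.00389). The call was lost with upper-quartile scaling (log2 fold change 0.12, adjusted p = 0.145). H3-3A was at 30.1, 27.0 and 29.5 CPM against 32.2, 34.4 and 31.3 CPM, and its log2 fold change of −0.17 did not pass (edgeR adjusted p = 0.0674), though it did in 5 of 22 alternatives.

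Set on a scale per kilobase of annotated exon, H2AZ1 was the highest replacement gene in non-induced cells (93.0 CPM per kb), before H2AX (43.9) and H3-3B (39.2). In induced cells the order was H2AZ1 (66.2), H3-3B (45.4) and H2AX (21.5). The length joins the exons of all annotated transcripts, 6134 bases for H3-3B, 17730 for MACROH2A1 and 1614 for H2AX. The longest single transcript of H3-3B has 2787 bases, so both orders depend on the lengths used. Of the cluster genes, H2BC12 went from 109 to 158 CPM per kb over a model of 381 bases that ends with the coding sequence, H2AC6 from 22.5 to 31.3 and H4C8 from 2.08 to 6.02.

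Summed over families, replacement genes carried most of the histone counts. The 10 tested replacement genes together were at 925 ± 32.7 CPM in non-induced and 817 ± 13.2 CPM in induced cells (SD, n = 3), and the 15 tested cluster genes at 131 ± 9.33 and 194 ± 1.93 CPM. The sum over all 50 members was 1057 ± 41.0 and 1012 ± 15.3 CPM, with overlapping libraries. Within the clusters, H2B genes together went from 71.5 to 114 CPM, H2A genes from 41.0 to 56.5 CPM and H4 genes from 4.80 to 13.6 CPM. The 25 members under the filter, by contrast, summed to 1.02 ± 0.16 CPM in non-induced and 0.52 ± 0.17 CPM in induced cells, at 0.923 to 1.21 and 0.390 to 0.706 CPM.

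RNAs without a poly(A) tail were looked at beside these sums. Of a list of 11 such RNAs, 2 had an identifier in the table and 0 passed the filter, so that check was void. All 2678 small nuclear, nucleolar and Cajal body RNA genes together were at 10.5 to 12.9 CPM in non-induced and 11.8 to 13.7 CPM in induced libraries. Their part in the cluster gene results was not tested.

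**Figure D3:**
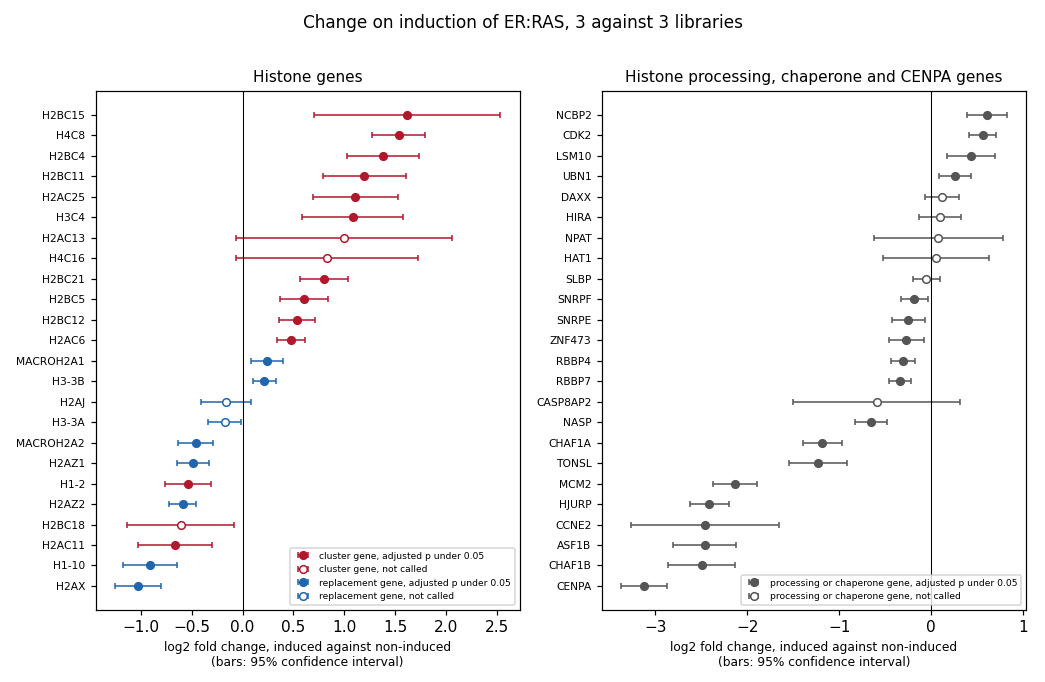
Log2 fold changes of induced against non-induced cells (horizontal axes) with 95% confidence intervals, for 24 tested histone genes at left and for 24 histone processing and chaperone genes at right, the called ones plus SLBP, NPAT, CASP8AP2, HIRA, DAXX and HAT1. Filled points passed an adjusted p of 0.05; most cluster genes lie to the right of 0, H2AX and H1-10 at the far left, and CENPA at −3.12.

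Genes that process, carry and place histones or their messages mostly fell or did not pass. Of 24 genes for the transcription and 3′ end processing of cluster messages, 3 rose and 4 fell (29.2% called, against 50.9% of all genes). Of 27 chaperone genes and their partners, CENPA included, 1 rose and 10 fell (40.7% called). With GC content and length corrected for, 30 of the 51 passed (58.8%, against 63.1% of all genes in that fit), 10 higher and 20 lower. SLBP, which binds the stem-loop, was at 57.2, 57.6 and 61.6 CPM in induced and 61.6, 62.4 and 59.0 CPM in non-induced libraries, with a log2 fold change of −0.05 (95% interval −0.20 to 0.09). NPAT, the cyclin E-CDK2 substrate that activates cluster genes, was at 20.2, 21.5 and 18.5 CPM against 11.1, 19.0 and 26.8 CPM, and its log2 fold change was 0.08 (95% interval −0.62 to 0.78).

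CASP8AP2, a component of the histone locus body, was as uneven as NPAT among non-induced libraries, at 9.95, 16.8 and 26.8 CPM in T, A and C against 13.7, 11.9 and 9.95 CPM in induced ones. The GC tilt of those non-induced libraries ran the other way, at 0.255, 0.003 and −0.208. The log2 fold change of CASP8AP2 was −0.59 (edgeR adjusted p = 0.255) and −0.65 with GC content and length corrected for (adjusted p = 0.0393).

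CDK2 and NCBP2, the cap-binding subunit, rose by 0.56 and 0.60 on the log2 scale (edgeR adjusted p = 2.79e-05 and 0.000281), and LSM10, a U7 snRNP protein, by 0.43 (adjusted p = 0.00998). CCNE2, the CDK2 partner cyclin E2, was at 2.24, 1.81 and 1.69 CPM against 6.55, 10.9 and 14.1 CPM and fell by 2.46 (edgeR adjusted p = 0.000131). The other genes of this list that fell were SNRPE, SNRPF and the U7 component ZNF473, by 0.18 to 0.27. The call of SNRPF held in 11 of 22 alternatives and was lost with GC content and length corrected for (adjusted p = 0.0551). The calls of ZNF473 and SNRPE each held in 18 and that of LSM10 in 20.

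Several chaperones that load histones behind the replication fork fell. CHAF1B, a subunit of CAF-1, was at 2.92, 3.08 and 3.69 CPM in induced and 19.96, 18.05 and 17.1 CPM in non-induced libraries (log2 fold change −2.50 ± 0.17, edgeR adjusted p = 1.11e-07), and its partner CHAF1A fell by 1.184 (adjusted p = 7.03e-07). ASF1B, which hands H3-H4 to CAF-1, was at 3.09, 3.19 and 2.62 CPM against 16.8, 16.8 and 15.3 CPM and fell by 2.47 (edgeR adjusted p = 6.56e-08). MCM2, TONSL and NASP, which also bind H3-H4, fell by 2.13, 1.23 and 0.65, and RBBP7 and RBBP4, which escort H3-H4 in several complexes, by 0.34 and 0.31.

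CENPA, the centromeric H3 that falls outside the naming rule, was at 1.42, 1.38 and 1.35 CPM in induced and 12.1, 13.02 and 11.1 CPM in non-induced libraries and fell by 3.12 ± 0.11 on the log2 scale (edgeR adjusted p = 4.94e-10). Its chaperone HJURP fell by 2.42 (adjusted p = 1.05e-09). Of the H3.3 pathway, UBN1 rose by 0.26 (adjusted p = 0.0190, a call that held in 18 of 22 alternatives), while HIRA and DAXX had log2 fold changes of 0.09 and 0.11 and did not pass (adjusted p = 0.491 and 0.292). HAT1, which acetylates new H4, was at 50.7 ± 3.56 against 49.0 ± 10.8 CPM (SD, n = 3; log2 fold change 0.05, edgeR adjusted p = 0.895).

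The knockdowns were then compared with induced cells, to see whether histone genes depended on XPO7 during OIS. XPO7 itself was at 26.4, 28.7 and 27.9 CPM with shXPO7_3 and at 50.8, 54.0 and 51.8 CPM with shXPO7_5, against 127, 144 and 139 CPM in induced cells. It fell by 2.30 and 1.39 on the log2 scale (edgeR adjusted p = 1.24e-08 and 3.27e-06). Both comparisons used the same 3 induced libraries.

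With shXPO7_3, 0 of 25 histone genes passed by edgeR, against 0.124% of all genes, and 0 passed by DESeq2, against 0.657%. At an unadjusted edgeR p under 0.05 there were 4 (16%), against 6.41% of all genes. Among them H2AC6 and H4C8 were lower, with log2 fold changes of −0.18 and −0.26, and H1-10 was higher, with 0.27. H4C8 was at 9.60, 11.1 and 11.7 CPM with shXPO7_3, under the 11.97 to 14.4 CPM of induced cells and above the non-induced libraries. The 15 cluster genes had a median log2 fold change of −0.17, the 10 replacement genes 0.13 and all genes −0.003. Estimates ran from −0.64 (H2BC15) to 0.27 (H1-10), and the lowest adjusted p was 0.543 (H2AC6).

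With shXPO7_5, 0 of 25 passed by edgeR, against 0.589% of all genes, and 2 passed by DESeq2 (H1-10 and H2AX), against 3.46%. At an unadjusted edgeR p under 0.05 there were 7 (28%), against 21.6% of all genes. H1-10 came closest: it was at 24.5, 22.1 and 29.7 CPM in replicates T, A and B, against 16.9 to 17.5 CPM in induced cells, with a log2 fold change of 0.56 ± 0.12 (edgeR adjusted p = 0.0615). H2AX was at 45.3, 38.7 and 50.4 CPM against 33.9 to 35.4 CPM (0.37 ± 0.10, adjusted p = 0.118). In both genes all shXPO7_5 libraries were above all induced ones, and replicate B, the library with the highest GC tilt, was the highest.

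These are the measured histone genes with the most GC-rich transcripts, at 68.6% for H1-10 and 66.9% for H2AX. With GC content and length corrected for, the log2 fold changes were 0.25 (edgeR adjusted p = 0.0682) and 0.08 (adjusted p = 0.360). With the replicate letter as a block added to that correction, 4 of 25 histone genes passed, against 5.26% of all genes. Among them H1-10 was higher (0.25, edgeR adjusted p = 0.0315). H2BC12 (−0.32, adjusted p = 0.0349) and H2BC4 (−0.53, adjusted p = 0.0461) were lower. With replicates T and B of shXPO7_5 and T of shXPO7_3 left out together, the shXPO7_5 group was down to 1 library. This set was chosen after seeing the data, and with 1 library in a group its calls are not read here. Without shXPO7_5 replicate A, 4 of 26 histone genes passed (15.4%, against 23.0% of all genes in that fit), among them H1-10 and H2AX, which were higher, and H2BC4, which was lower.

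Others of the 7 were MACROH2A1 (log2 fold change 0.19) and MACROH2A2 (0.18), which were higher, and H4C8 (−0.32) and H2BC4 (−0.43), which were lower. H4C8 was at 10.3, 11.1 and 9.83 CPM with shXPO7_5 and H2BC4 at 5.39, 7.34 and 5.92 CPM, both between the induced and the non-induced libraries. MKI67 was at 35.3, 38.9 and 32.2 CPM with shXPO7_5 and at 36.4, 36.5 and 34.7 CPM with shXPO7_3, above the 25.5 to 30.3 CPM of induced cells. Its log2 fold changes were 0.37 and 0.38 (edgeR adjusted p = 0.0855 and 0.167), and 0.44 and 0.37 with GC content and length corrected for (adjusted p = 0.00656 and 0.0157). The part of proliferation in the histone values was not tested. The correction left −0.26 for H4C8 (edgeR adjusted p = 0.152) and −0.51 for H2BC4 (adjusted p = 0.190). Medians were −0.10 for cluster genes, 0.13 for replacement genes and 0.01 for all genes.

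**Figure D4:**
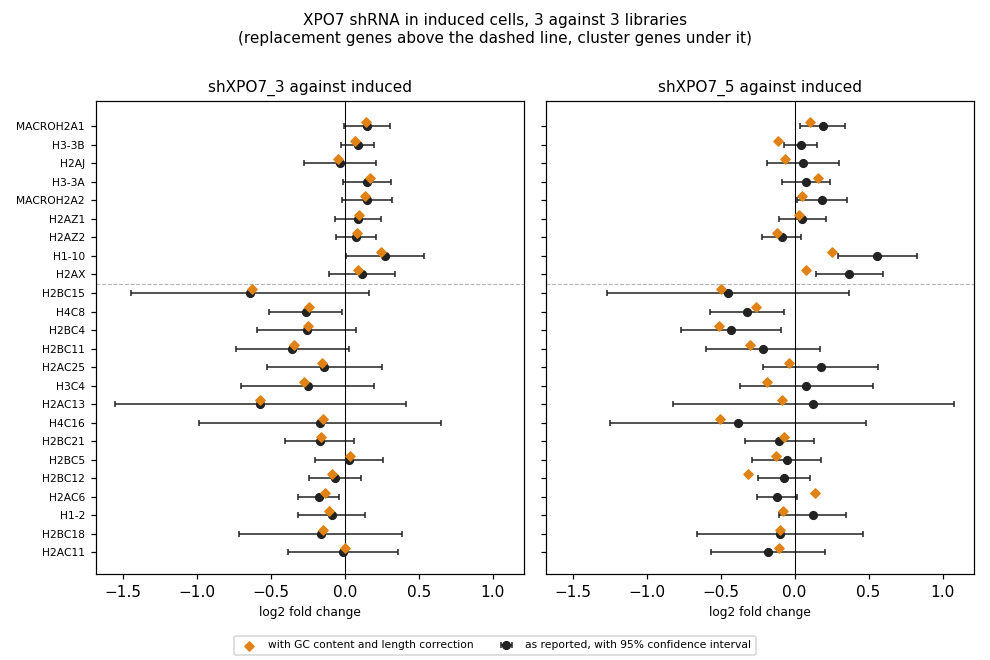
Log2 fold changes of 24 tested histone genes with shXPO7_3 (left) and shXPO7_5 (right) against induced cells, as circles with 95% confidence intervals and, with GC content and length corrected for, as diamonds; both panels share the same induced libraries. H1-10 and H2AX lie at 0.56 and 0.37 with shXPO7_5 and at 0.25 and 0.08 after correction, and no gene passed an adjusted p of 0.05.

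Between the shRNAs, 0 of 25 histone genes passed by edgeR, against 0.0131% of all genes, and 0 passed by DESeq2, against 0.206%. By edgeR 3 had an unadjusted p under 0.05 (12%, against 11.9% of all genes). H2AZ2 was lower with shXPO7_5 than with shXPO7_3 (log2 fold change −0.16, 95% interval −0.30 to −0.03), and H2AX and H1-10 were higher (0.26 and 0.29). After the correction the last pair were at −0.01 and 0.01. Of the 51 processing and chaperone genes, 0 passed by edgeR in either knockdown. At an unadjusted p under 0.05 there were 2 with shXPO7_3 (3.92%, against 6.41% of all genes), CHAF1B (0.44) and HJURP (0.23), and 10 with shXPO7_5 (19.6%, against 21.6%), led by MCM2 (0.43, edgeR adjusted p = 0.0933).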

How the data were processed

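RNA-seq libraries of IMR90 ER:RAS cells were analysed in 4 groups of 3, taken from the sample labels. The authors deposited whole-number counts of reads per gene, without normalization. Per the submitters' processing notes, they used TopHat2 2.0.11 and featureCounts 1.18.0 after CASAVA 1.8.4, with GRCh37 (hg19) as the build. The annotation, the strand option and the treatment of reads matching more than 1 place remain not given in the sources used here. Strand is marked by the kit. The table had 62069 genes and 92 spike-in entries, which held 0 counts and were left out. Names were matched by Ensembl identifier for 50409 genes (99.5% of counts). Coordinates, transcript lengths and stem-loops are from GENCODE 29 (GRCh38) and promoters from RefSeq, so no coordinate of the counting was used.

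The fit was made with edgeR 4.0.16 (limma 3.58.1, R 4.3.3): filterByExpr (15284 genes kept), TMM factors, and a quasi-likelihood fit on all 12 libraries with Benjamini-Hochberg adjustment over all genes and a threshold of 0.05. CPM use the TMM-scaled totals. The procedure was tested on simulated data. The correction for GC content and length fitted, per library, a smooth trend (5 degrees of freedom) of log ratios over genes with both values (97.2%) and used it as an offset. DESeq2 1.42.0, other scalings and filters, the replicate letter as a block, the compared groups alone, and leaving out each library were the alternatives. Replicates differed by more than sampling noise (chi-square per gene 4.57 to 61.7), so none was treated as a library deposited again; this does not tell separate cultures from repeat preparations. An exact permutation test of 3 against 3 libraries cannot go below p = 0.1 and was not used. Totals limit precision for genes near the filter, where a library held few counts.

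The members and the lists of processing, chaperone and marker genes were chosen with earlier results of these data known. Values per library were given for replacement genes that passed the filter, the 10 cluster genes with the highest mean and called members; of the other lists, for SLBP, NPAT, CASP8AP2, ASF1B, CHAF1A, CHAF1B, HIRA, DAXX, HAT1, CENPA and up to 3 called genes with the largest change each way, by value or mean. Counts and sums cover 1 replacement gene that is not reported here.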

Additional observations from a re-analysis of the deposited data

How the results depend on the processing

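The count of 20 histone genes called on induction was 19 to 22 in every alternative that kept the threshold, 19 to 21 with 1 library left out, and 7 when a log2 change of at least 1 was also asked for. The share of all genes called ran from 24.6% without the filter, where 42 histone genes were tested, to 63.1% with the GC correction. It was 43.0% to 53.2% with 1 library left out and 16.8% with the log2 change. Upper-quartile scaling shifted the median of all genes by −0.098 and turned the split of 12 higher and 8 lower into 10 and 10. For shXPO7_5 against induced, 0 became 1 without the filter, against 0.685% of all genes in that fit, and 2 with DESeq2, against 3.46%. It became 4 with the replicate block and GC correction together, against 5.26% of all genes. With 1 library left out it was 0 to 4, the 4 without shXPO7_5 replicate A, where 3634 genes (23.0%) were called in all against 90. The count stayed at 0 under all other alternatives that kept more than 1 library in each group. For shXPO7_3 against induced and between the shRNAs it was 0 under every alternative of that kind. Of the 51 processing and chaperone genes, 18 were called on induction (35.3%, against 50.9% of all genes) and 30 with the GC correction (58.8%, against 63.1%). The replicate block and GC correction together gave 32, against 62.1% of all genes. A log2 change of at least 1 left 8 (15.7%, against 16.8%). Leaving out 1 library gave 16 to 20, against 43.0% to 53.2% of all genes.

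The replicate letters gave no consistent pairing: correlations of same-letter libraries ran from −0.234 to 0.589, and non-induced cells have a replicate C in place of B. With the replicate block, 20 histone genes were called on induction (12 higher, 8 lower), 0 in each knockdown comparison, and 20 processing and chaperone genes on induction.

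Of 963 values under alternatives, from 44 fold changes of members, XPO7 and the main processing and chaperone genes, 932 kept direction and side of the threshold, 4 lost the call, 18 gained it and 9 turned sign, all in genes that were not called. NPAT turned to −0.01095 with upper-quartile scaling and −0.01082 with the GC correction (−0.1893 to 0.4073 with 1 library left out). HAT1 turned to −0.04451 with upper-quartile scaling, −0.06466 with the GC correction and −0.05064 with the block and correction (−0.1167 to 0.1854 with 1 library left out), and HIRA to −0.003626 with upper-quartile scaling. The lost calls among these 44 were H3-3B, MACROH2A1 under 2 alternatives, and H2AC6 with the block and GC correction (0.24, edgeR adjusted p = 0.0567). Outside the 44, the induction calls of 5 processing and chaperone genes did not hold throughout. SNRPF lost its call in 11 of 22 alternatives, 6 of them with 1 library left out (highest adjusted p = 0.255). SNRPE lost it without induced replicate A or non-induced replicate C, ZNF473 without induced replicate A or non-induced replicate T, and UBN1 without induced replicate B or non-induced replicates A or C (adjusted p = 0.0581 to 0.101). SNRPE also lost it with the replicate block and without the filter, ZNF473 without the filter and with the block and GC correction, UBN1 with upper-quartile scaling (0.227), and LSM10 with the block and with upper-quartile scaling (0.0525 and 0.0646). The causes were not tested. Few counts limit H2BC15, H2AC13 and H4C16, which had 3 to 37 counts in a library.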

Other observations

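Loci named for histones that are not protein-coding were outside the naming rule but had counts. H2BC20P, an H2B pseudogene, was at 4.76, 5.03 and 4.62 CPM in induced and 4.08, 4.64 and 3.68 CPM in non-induced libraries, with overlapping groups (log2 fold change 0.21, edgeR adjusted p = 0.236). H3P6, an H3 pseudogene, was at 2.13 ± 0.30 and 2.03 ± 0.29 CPM (SD, n = 3), and HIST2H2BB at 0.40 ± 0.17 and 0.60 ± 0.25 CPM (edgeR adjusted p = 0.783 and 0.184). H1-10-AS1, the antisense neighbour of H1-10, was at 1.15, 1.24 and 1.09 CPM against 2.26, 1.97 and 2.07 CPM and fell by 0.86 on the log2 scale (edgeR adjusted p = 0.00402), beside the fall of 0.91 in H1-10. Since the strand setting of the counting is not given, reads of this gene and of H1-10 cannot be told apart with certainty. In the knockdowns 0 of these 4 loci passed by edgeR, 0 had an unadjusted p under 0.05, and DESeq2 called 0.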
